A study of Homo sapiens with 48 samples.

Results

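The unfolded protein response and endoplasmic reticulum (ER) genes described here are 32 genes out of the 58870 in the count table, chosen by symbol. They fall into 6 role groups: 11 ER chaperones and co-chaperones, 3 disulfide isomerases, 4 stress sensors and transcription factors, 6 genes of ER-associated degradation, 6 genes of targeting, translocation and export, and 2 other ER membrane proteins. All 32 passed the filter on low counts and were tested, in a background of 16697 tested genes.

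The cells were Flp-In 293 T-REx, derived from human embryonic kidney and built to take a transgene at a single site under a tetracycline repressor. There were 8 stable lines. CLIP carried the CLIP tag alone, a protein tag that can be labelled chemically, WT carried CLIP-tagged wild-type UPF1, and E797R, F192E, I757R, FE-ER, IR-ER and LECY each carried a CLIP-tagged UPF1 mutant of that name. The labels do not spell out FE-ER, IR-ER and LECY, and do not say whether a line was a clone or a pool or whether an inducer of the transgene was added. Each line received siRNA at 40 nM, either a non-targeting control (siNT) or one directed at endogenous UPF1 (siUPF1), and was harvested after 72 h, with 3 biological replicates per line and siRNA, 16 groups and 48 libraries in all. All groups, siNT included, kept the endogenous UPF1 gene.

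UPF1 is the RNA helicase at the core of nonsense-mediated mRNA decay (NMD), a pathway that destroys mRNAs whose stop codon comes too early, along with a set of normal mRNAs. The unfolded protein response is set off when unfolded proteins build up in the ER. Its 3 sensors are ERN1 (IRE1), which splices XBP1 mRNA, ATF6, which is cut in the Golgi to release a transcription factor, and EIF2AK3 (PERK), which phosphorylates eIF2alpha. XBP1 and ATF6 activate chaperone and degradation genes through ER stress response elements in their promoters, and several mRNAs of the response, among them those of ERN1 and TBL2, have been described as NMD targets.

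Some promoters of the set carry those elements, so the sequences are shown first. RefSeq promoter windows of GRCh38.p14, from 250 bases before to 50 bases after the start, were at hand for 28 members. The ER stress response element ERSE (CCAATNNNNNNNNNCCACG, searched on both strands) was found in 7 of these 28 members (25.0%), namely HSPA5, HSP90B1, CALR, CANX, CRELD2, PDIA6 and XBP1, and in 0.0916% of the 27305 genes of the table, counting a gene once if any of its promoters held the element. ERSE-II (ATTGGNCCACG, both strands) was found in 3 members, HYOU1, SDF2L1 and HERPUD1, and in 0.0696% of all genes. The UPRE core (TGACGTGG or TGACGTGA, both strands) was found in HYOU1 alone of the members and in 1.44% of all genes. The short element CCACG was in 23 of the 28 members and in 42.1% of all genes. ERSE was present in 3 of the 13 members with a window that were higher with siUPF1 in the mean of the lines and in 4 of the 15 that were not. A match describes the letters in the window and not a bound site.

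HYOU1 and HSPA5 are printed in full, since they carry different elements and their responses to the knockdown differed in size. Both were higher in the mean of the lines, and whether an element bears on a response was not tested. Each is the stretch of 250 bases before the start, 5′ to 3′ on the gene's strand, with the matches in capitals. HYOU1 lies at chr11:119057206-119057455 (minus strand), and its UPRE core overlaps its upstream ERSE-II, so that the first capital run holds both. HSPA5 lies at chr9:125241344-125241593 (minus strand), and its capitals are the ERSE.
HYOU1: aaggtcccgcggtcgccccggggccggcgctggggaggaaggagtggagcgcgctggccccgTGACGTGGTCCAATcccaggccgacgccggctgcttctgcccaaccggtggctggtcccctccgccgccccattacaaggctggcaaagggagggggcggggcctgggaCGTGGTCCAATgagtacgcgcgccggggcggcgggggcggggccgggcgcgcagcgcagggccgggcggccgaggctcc
HSPA5: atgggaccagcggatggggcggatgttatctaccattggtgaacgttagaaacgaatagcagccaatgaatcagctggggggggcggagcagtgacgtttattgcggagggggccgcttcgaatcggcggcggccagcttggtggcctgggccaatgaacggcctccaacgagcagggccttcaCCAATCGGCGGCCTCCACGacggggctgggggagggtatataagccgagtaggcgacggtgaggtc
Shorter windows, a match in capitals with 12 bases on each side, show an ERSE in CALR (chr19:12938372-12938414, plus strand) and ERSE-II in SDF2L1 (chr22:21642102-21642136, plus strand) and HERPUD1 (chr16:56932013-56932047, plus strand), none of which was called in any line.
CALR: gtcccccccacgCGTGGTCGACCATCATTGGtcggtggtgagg
SDF2L1: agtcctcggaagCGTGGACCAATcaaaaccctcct
HERPUD1: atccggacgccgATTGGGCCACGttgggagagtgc

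The libraries held 6016962 to 14551811 counts, with a median of 8670868. In CLIP, UPF1 was at 111, 97.2 and 109 CPM (CPM are counts scaled to a common library size, with TMM factors) with siNT and at 20.4, 21.3 and 19.5 CPM with siUPF1, so the targeted RNA was lower in every siUPF1 library of that line. In the 7 other lines UPF1 stood between 3050.3 and 5116 CPM with either siRNA, where transgene and endogenous reads are summed and the knockdown cannot be read. Blood, keratinocyte and hepatocyte markers each summed to at most 0.512 CPM in any library, and the 4 neural genes that these cells express in part summed to 221 to 423 CPM with siNT and 238 to 497 CPM with siUPF1. Fibroblast markers summed to 5.86 to 10.8 CPM with siNT and 4.13 to 13.1 CPM with siUPF1, and mitochondrially encoded mRNAs took 1.98% to 3.62% and 2.19% to 4.41% of counts; their part in the results was not tested.

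Before any comparison, the members spanned a wide range of levels. Per kilobase of exon, the calcium-binding lectin chaperone CALR was the highest with siNT, at a median of 461 CPM per kb over 24 libraries, followed by the HSP90 of the ER, HSP90B1, at 345 and by the membrane-bound lectin CANX at 216. HSPA5 (BiP), the main ER chaperone and a repressor of the sensors, was at 106 CPM per kb, and SEC24D and ERN1 were lowest at 1.41 and 1.40. The members together took 0.579% to 0.762% of counts with siNT and 0.679% to 0.825% with siUPF1. In bulk RNA, a change in the number of cells with a transcript and a change of its amount per cell cannot be told apart.

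With siUPF1 against siNT, called the knockdown below, 17 members were higher and 1 was lower in the mean of the 8 lines. The other 14 were not called at an adjusted p under 0.05. UPF1 RNA was high with either siRNA in the lines with CLIP-tagged UPF1. Whether a member's change came from less UPF1 or from another effect of the siRNA was not tested. Of all tested genes 31.6% were called higher and 31.2% lower in that mean. The members' median log2 change was 0.17, and that of all tested genes was -0.0012. By role group, 3 of 11 chaperones were higher in that mean, a share near that of all tested genes. The counts were 2 of 3 isomerases, 3 of 4 sensors and transcription factors, and 4 of 6 degradation genes. They were 4 of 6 targeting and export genes and 1 of 2 other membrane proteins. That 1, TBL2, was called in CLIP, F192E and LECY alone. These groups are small, and their counts are descriptions.

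**Figure D1:**
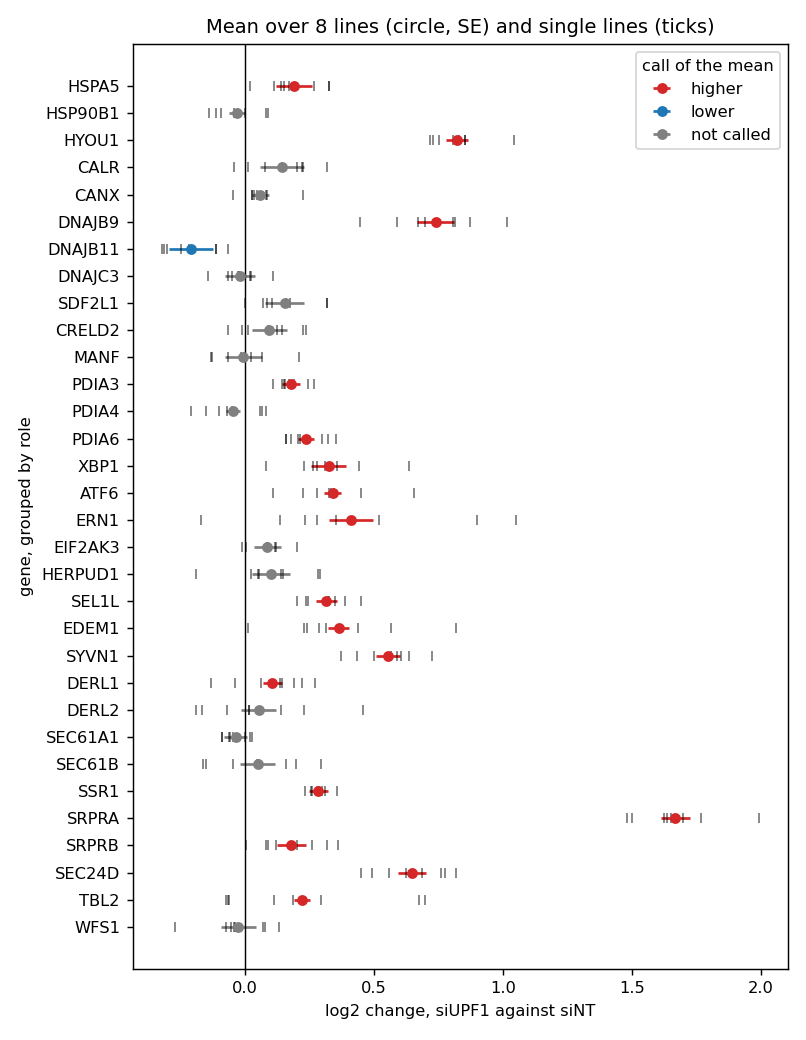
Log2 change with siUPF1 against siNT (x axis) of the 32 members (y axis, grouped by role). Circles with bars are the mean over 8 lines and its SE, coloured by the call of the mean, and ticks are the single lines. SRPRA lies apart at 1.67, HYOU1, DNAJB9, SEC24D and SYVN1 lie between 0.55 and 0.82, and DNAJB11 is the member called lower.

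Line by line, 6 to 12 members were higher and at most 1 was lower. In CLIP, 10 members rose and none fell, where 18.1% of tested genes rose and 15.6% fell, and the members' median log2 change was 0.20. In WT, 6 members rose and none fell (background 8.43% higher and 6.98% lower, median 0.22). In both lines a larger share of the members than of all tested genes rose, and SRPRA, HYOU1, DNAJB9, SYVN1 and SEC24D were among the risers of each. The members were chosen with earlier results of these data known, so that larger share is a description and not a test. In F192E, 9 members rose (11.8% of tested genes higher and 10.1% lower, median 0.16). In FE-ER, 6 rose (10.1% of tested genes higher and 8.52% lower, median 0.13). In I757R, 7 rose (8.13% of tested genes higher and 7.79% lower, median 0.13). ATF6 was among the risers of F192E and FE-ER, and in I757R it was called only when the replicate number was fitted as a block (adjusted p = 0.0336). In IR-ER, 10 rose (9.21% of tested genes higher and 7.8% lower, median 0.19). In E797R, 9 rose (8.34% of tested genes higher and 7.73% lower, median 0.11). In LECY, 12 rose and 1, the isomerase PDIA4, fell (15.8% of tested genes higher and 13.6% lower, median 0.25). The PDIA4 fall of -0.21 (SE 0.080, adjusted p = 0.0431) was lost without any 1 of the LECY siNT replicates 1 and 2 or the siUPF1 replicates 1, 2 and 3 (adjusted p from 0.0668 to 0.193), without the expression filter (0.241) and when only LECY was fitted (0.0908). With the replicate number as a block, 17 members rose in LECY (21.4% of tested genes), 14 in F192E (17.9%), 13 in CLIP (23.5%) and IR-ER (15.3%), 11 in WT (13.7%) and E797R (14.0%), and 9 in FE-ER (16.2%) and I757R (14.4%). DNAJB11 and PDIA4 then fell in CLIP (22.2% of tested genes lower) and LECY (20.2%), and DNAJB11 in FE-ER (14.9%). Without the block, 15 members were called in at least 1 line and 17 in none, a share of members near that of all tested genes, of which 47.1% were called in at least 1 line.

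**Figure D2:**
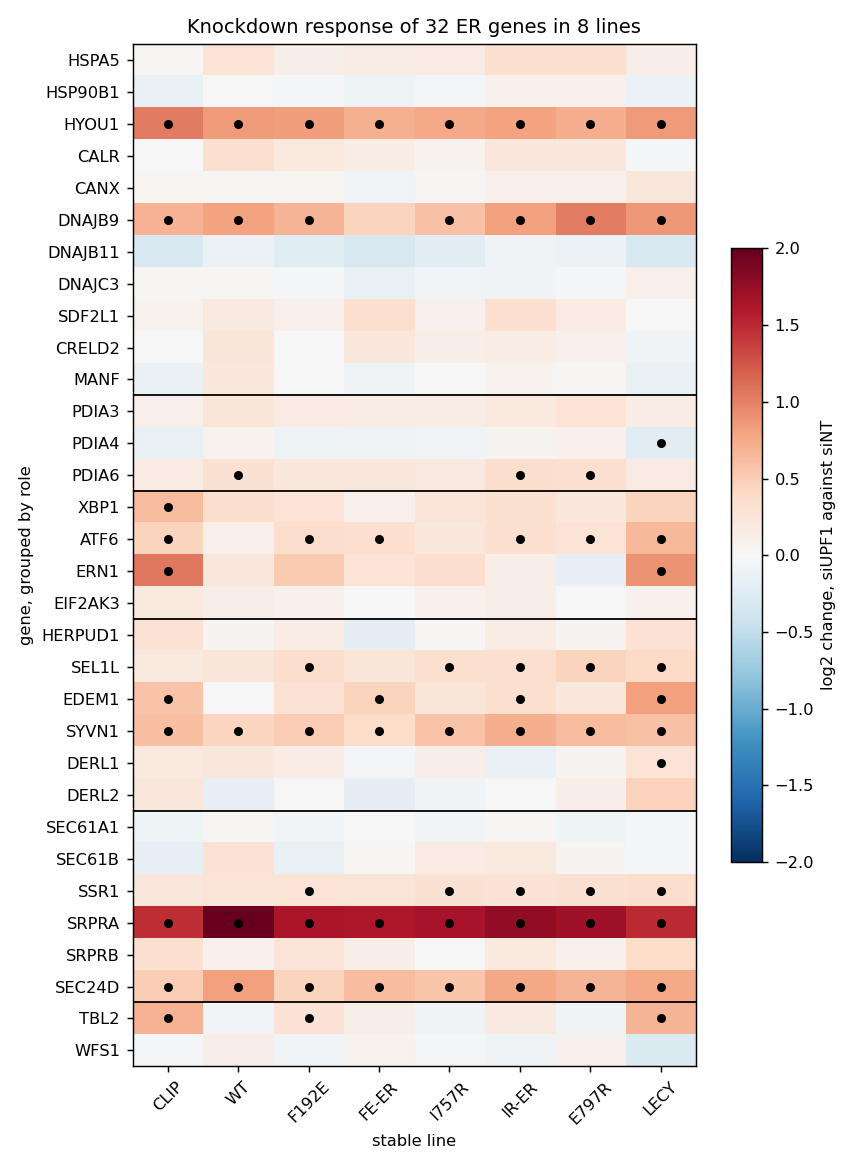
Log2 change with siUPF1 against siNT (colour) of each member (rows, in role groups divided by black rules) in each stable line (columns), with a dot where the change was called at an adjusted p under 0.05. HYOU1, SYVN1, SRPRA and SEC24D have a dot in all 8 columns, and TBL2 has one in CLIP, F192E and LECY.

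SRPRA, HYOU1, SYVN1 and SEC24D were called higher in all 8 lines, as were 3.54% of all tested genes. Their siUPF1 libraries lay above their siNT libraries in every line, which also held for SSR1 and for 4.16% of tested genes. With the replicate block, PDIA6 and SSR1 were called in all 8 lines too.

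The largest change was in SRPRA, the alpha subunit of the signal recognition particle receptor, which takes ribosomes with nascent secretory proteins to the ER membrane (chromosome 11, 126262919 to 126269144, minus strand, GENCODE 29 on hg38). With siNT, SRPRA was at 46.9, 36.8 and 43.6 CPM in CLIP, 50.6, 39.7 and 40.1 in WT, 46.3, 36.7 and 42.5 in F192E, 50.7, 44.1 and 43.9 in FE-ER, 48.2, 41.04 and 42.1 in I757R, 48.5, 40.2 and 43.7 in IR-ER, 60.03, 43.3 and 44.95 in E797R and 45.8, 38.6 and 47.8 in LECY. With siUPF1, SRPRA was at 142, 106 and 107 CPM in CLIP, 219, 162 and 137 in WT, 147, 129 and 116 in F192E, 154, 138 and 136 in FE-ER, 164, 130.2 and 119 in I757R, 167, 147 and 138 in IR-ER, 181, 159 and 143 in E797R and 145, 122 and 107 in LECY. No siUPF1 library of a line reached down to its siNT libraries, and the lowest siUPF1 library of all, at 106 CPM, stood above the highest siNT library, at 60.0 CPM. SRPRA rose by 1.67 on the log2 scale in the mean (SE 0.055, adjusted p = 9.8e-26), a 3.18-fold rise, and ran from 1.48 in CLIP (SE 0.16) to 1.99 in WT (SE 0.16). SRPRB, the membrane-anchored beta subunit, rose by 0.18 in the mean (SE 0.056, adjusted p = 0.00582) and was called in no single line; in CLIP its change was 0.32. SRPRB was called with the replicate block in CLIP (adjusted p = 0.0175) and LECY (0.00604). Of the exon bases of SRPRA, 2.16% are shared with FOXRED1 and 1.63% with FAM118B, both on the opposite strand, and the strand setting of the counting is not given in the sources used here.

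SEC24D, a cargo-binding subunit of the COPII coat that forms transport vesicles at the ER (chromosome 4, 118722823 to 118838683, minus strand), was the other member of the export group called in every line. With siNT, SEC24D was at 13.5, 13.02 and 12.3 CPM in CLIP, 13.6, 12.4 and 12.4 in WT, 14.4, 13.5 and 15.3 in F192E, 18.3, 12.4 and 14.5 in FE-ER, 18.9, 12.4 and 14.8 in I757R, 19.7, 12.8 and 15.2 in IR-ER, 16.8, 14.97 and 14.6 in E797R and 14.99, 12.3 and 10.5 in LECY. With siUPF1, SEC24D was at 19.2, 17.5 and 17.8 CPM in CLIP, 23.3, 23.5 and 20.95 in WT, 21.5, 17.9 and 19.6 in F192E, 22.9, 22.8 and 24.5 in FE-ER, 25.7, 21.5 and 21.1 in I757R, 31.2, 20.9 and 29.9 in IR-ER, 27.7, 22.6 and 24.4 in E797R and 22.03, 21.9 and 19.9 in LECY. The siNT and siUPF1 libraries did not overlap in any line. Its log2 change was 0.65 in the mean (SE 0.054, adjusted p = 1.8e-13), with 0.45 in F192E (SE 0.15) at the low end and 0.82 in WT (SE 0.16) at the high end. The call in F192E was lost without siNT replicate 1 or 2 or siUPF1 replicate 1 or 3 (adjusted p from 0.0597 to 0.142), and that in I757R without siNT replicate 2 (0.0837) or siUPF1 replicate 1 (0.0681). The former was also lost without the expression filter (0.0710), and the latter when only the libraries of that line were fitted (0.0680).

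Of the translocation channel, the pore subunit SEC61A1 changed by -0.04 in the mean (adjusted p = 0.500) and the beta subunit SEC61B by 0.05 (0.542), and neither passed the test in any line. SSR1, a subunit of the translocon-associated TRAP complex, rose by 0.28 in the mean (SE 0.036, adjusted p = 5.8e-09), with 199 to 278 CPM over the siNT libraries and 267 to 339 CPM over the siUPF1 libraries. It was called in F192E, I757R, IR-ER, E797R and LECY, with changes from 0.23 in CLIP to 0.36 in LECY. The F192E and IR-ER calls were lost without any 1 of the 6 libraries of the line (adjusted p from 0.0580 to 0.326). The LECY call was lost without siNT replicate 3 (0.106), the E797R call without siNT replicate 3 or siUPF1 replicate 1 or 2 (0.0686 to 0.200), and the I757R call without siNT replicate 2 or 3 or siUPF1 replicate 1 or 2 (0.0747 to 0.199). Without the expression filter the F192E, I757R, IR-ER and E797R calls were lost (0.0702 to 0.183), and when only the line was fitted those of I757R, IR-ER, E797R and LECY (0.0711 to 0.110).

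**Figure D3:**
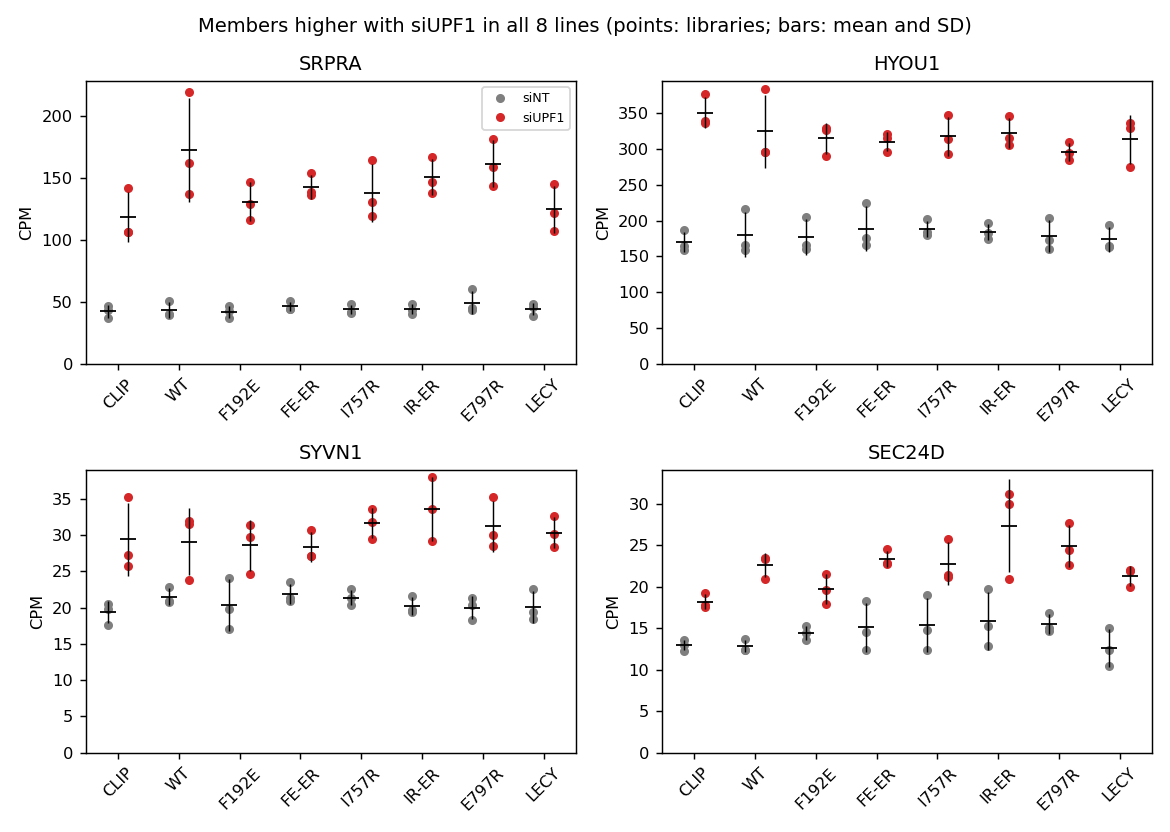
CPM (y axis, from 0) of SRPRA, HYOU1, SYVN1 and SEC24D in the 8 stable lines (x axis), with 1 point per library (grey siNT, red siUPF1) and black bars for the mean and SD of 3 replicates. In every line and panel the red points lie above the grey points, and in SRPRA the lowest red point (106 CPM) lies above the highest grey point (60.0 CPM).

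Among the chaperones, HYOU1 and DNAJB9 responded most. HYOU1 is the large HSP70 relative that recharges BiP by nucleotide exchange (chromosome 11, 119044189 to 119057202, minus strand). With siNT, HYOU1 was at 186, 159 and 165 CPM in CLIP, 216, 166 and 158 in WT, 206, 160.2 and 165 in F192E, 225, 176 and 165 in FE-ER, 202, 180.3 and 184 in I757R, 196, 174 and 183 in IR-ER, 204, 161 and 172 in E797R and 193, 163 and 165 in LECY. With siUPF1, HYOU1 was at 376, 337 and 339.7 CPM in CLIP, 383, 295 and 295 in WT, 329, 327 and 290.2 in F192E, 321, 315 and 296 in FE-ER, 347, 292 and 313 in I757R, 346, 315 and 305 in IR-ER, 309.6, 294 and 285 in E797R and 330.0, 275 and 336 in LECY. Every siUPF1 library, from 275 CPM upward, lay above every siNT library, which reached 225 CPM. HYOU1 rose by 0.82 in the mean (SE 0.042, adjusted p = 7.4e-20) and 0.72 (FE-ER) to 1.05 (CLIP) in single lines, each with an SE of 0.12.

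DNAJB9 is a BiP co-chaperone that holds IRE1 in its inactive state and is a known XBP1 target (chromosome 7, 108569568 to 108574850, plus strand). With siNT, DNAJB9 was at 10.1, 11.8 and 8.89 CPM in CLIP, 7.72, 11.04 and 11.01 in WT, 9.67, 9.20 and 9.53 in F192E, 14.5, 9.18 and 11.5 in FE-ER, 10.7, 10.95 and 12.3 in I757R, 17.6, 8.77 and 11.7 in IR-ER, 9.10, 8.11 and 11.1 in E797R and 8.91, 10.3 and 9.45 in LECY. With siUPF1, DNAJB9 was at 16.7, 15.99 and 17.2 CPM in CLIP, 15.2, 20.4 and 17.2 in WT, 16.7, 14.4 and 14.1 in F192E, 17.3, 16.03 and 15.2 in FE-ER, 20.8, 11.7 and 17.8 in I757R, 27.5, 16.5 and 23.3 in IR-ER, 22.3, 16.4 and 18.1 in E797R and 19.5, 18.9 and 14.6 in LECY. It was higher with siUPF1 in 24 of 24 pairs of libraries with the same line and replicate number, and siNT and siUPF1 libraries did not overlap in 6 lines. DNAJB9 rose by 0.74 in the mean (SE 0.072, adjusted p = 1.2e-11), highest in E797R at 1.02 (SE 0.21) and lowest in FE-ER at 0.45 (SE 0.20), where it was not called (adjusted p = 0.123). The I757R call was lost without any library but siUPF1 replicate 2 (adjusted p from 0.0517 to 0.279), the IR-ER call without siNT replicate 2 (0.0617) or siUPF1 replicate 1 (0.0540), and the F192E call without siUPF1 replicate 1 (0.0777). When only the line was fitted, the I757R (0.101) and IR-ER (0.0627) calls were lost. Exons of THAP5 and PNPLA8, on the opposite strand, share 6.45% and 3.49% of its exon bases.

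The abundant chaperones moved little. HSPA5 stood at 282 to 498 CPM with siNT and 356 to 598 CPM with siUPF1, rose by 0.19 in the mean (SE 0.069, adjusted p = 0.0176) and was called in no single line, or in WT (0.0304), IR-ER (0.00543) and E797R (0.00832) with the replicate block. HSP90B1 changed by -0.03 (SE 0.033), CANX by 0.06 (SE 0.032) and CALR by 0.14 (SE 0.086), and none of them was called. DNAJB11, the co-chaperone that brings substrates to BiP, was the member that fell in the mean, by 0.21 on the log2 scale (SE 0.085, adjusted p = 0.0311), and was lower with siUPF1 in 23 of 24 pairs. That call was lost without siNT replicate 2 of E797R, F192E, FE-ER, I757R, IR-ER or LECY, or siUPF1 replicate 3 of E797R, I757R, LECY or WT (adjusted p from 0.0501 to 0.0685), and DNAJB11 was called in no single line. The stress-inducible SDF2L1 (0.15), CRELD2 (0.09), MANF (-0.01) and the BiP co-chaperone DNAJC3 (-0.02) were not called in the mean or in any line. With the replicate block, CALR (adjusted p = 0.0114), CANX (0.0182), SDF2L1 (0.0215) and CRELD2 (0.0317) were also called higher in the mean, and CANX in LECY (0.00527).

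Of the isomerases, which form and rearrange disulfide bonds, PDIA6 rose most (chromosome 2, 10783391 to 10837977, minus strand). With siNT, PDIA6 was at 222, 205 and 213 CPM in CLIP, 251, 229 and 202 in WT, 232, 220.2 and 184 in F192E, 212, 213 and 197 in FE-ER, 228, 224 and 187 in I757R, 206, 209.9 and 193 in IR-ER, 243, 219.8 and 191 in E797R and 225, 226 and 187 in LECY. With siUPF1, PDIA6 was at 243, 244 and 228 CPM in CLIP, 289, 287 and 264 in WT, 252, 246 and 235 in F192E, 244, 238 and 239 in FE-ER, 271, 229.8 and 223 in I757R, 268, 254 and 258 in IR-ER, 289, 273 and 256 in E797R and 244, 233 and 234 in LECY. It was higher with siUPF1 in 24 of 24 pairs, by 0.24 in the mean (SE 0.032, adjusted p = 4.1e-08), and was called in WT (0.30), IR-ER (0.35) and E797R (0.32). The WT call was lost without siNT replicate 2 or 3 or siUPF1 replicate 1 or 2 (adjusted p from 0.0577 to 0.134), the E797R call without siNT replicate 3 (0.112) or siUPF1 replicate 1 (0.0763), and the IR-ER call without siNT replicate 3 (0.0522). The WT and E797R calls were also lost without the expression filter (0.118 and 0.0567) and when only the line was fitted (0.135 and 0.0884). Of its exon bases, 25.2% are shared with ATP6V1C2 on the opposite strand.

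PDIA3, the isomerase that works with CALR and CANX on glycoproteins (chromosome 15, 43746392 to 43773279, plus strand), rose in the mean without a call in any line. With siNT, PDIA3 was at 295, 306 and 293 CPM in CLIP, 328, 336 and 281 in WT, 306, 321 and 269 in F192E, 274, 306 and 292 in FE-ER, 301, 297 and 245 in I757R, 285, 316 and 263 in IR-ER, 329, 318 and 249.9 in E797R and 286, 315 and 251 in LECY. With siUPF1, PDIA3 was at 291, 351 and 320.1 CPM in CLIP, 372, 369 and 378 in WT, 341, 346 and 321 in F192E, 309, 328 and 326 in FE-ER, 326, 331 and 279.7 in I757R, 319.9, 340.5 and 325 in IR-ER, 370.1, 376 and 335 in E797R and 316, 345 and 289.8 in LECY. The siUPF1 library was higher in 23 of 24 pairs, and the sets did not overlap in 4 lines. PDIA3 rose by 0.18 in the mean (SE 0.035, adjusted p = 2.4e-05) and 0.11 (CLIP) to 0.27 (E797R) in single lines. It was called in 4 lines with the replicate block. PDIA4, another isomerase, changed by -0.05 in the mean (adjusted p = 0.148). Its knockdown response in LECY fell short of that in WT when the replicate block was fitted (-0.27, adjusted p = 0.0417).

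In ER-associated degradation, which returns misfolded proteins to the cytosol, SYVN1 rose in all lines. SYVN1 (HRD1) is the ubiquitin ligase at the centre of that pathway (chromosome 11, 65121780 to 65134533, minus strand). With siNT, SYVN1 was at 20.5, 17.6 and 19.8 CPM in CLIP, 22.8, 20.8 and 20.9 in WT, 19.8, 24.1 and 17.1 in F192E, 20.9, 23.5 and 21.3 in FE-ER, 20.4, 22.5 and 21.2 in I757R, 21.6, 19.4 and 19.7 in IR-ER, 20.3, 21.3 and 18.2 in E797R and 18.4, 19.4 and 22.5 in LECY. With siUPF1, SYVN1 was at 35.2, 25.7 and 27.3 CPM in CLIP, 31.98, 31.5 and 23.7 in WT, 29.8, 31.4 and 24.6 in F192E, 27.1, 30.7 and 27.1 in FE-ER, 31.7, 33.6 and 29.5 in I757R, 37.9, 29.2 and 33.6 in IR-ER, 30.00, 35.2 and 28.5 in E797R and 30.1, 32.6 and 28.3 in LECY. The siNT and siUPF1 libraries did not overlap in any line. SYVN1 rose by 0.55 in the mean (SE 0.045, adjusted p = 1.1e-13) and 0.37 (FE-ER, SE 0.13) to 0.73 (IR-ER, SE 0.13) in single lines. The FE-ER call was lost without any library but siNT replicate 2 (adjusted p from 0.0565 to 0.157), the WT call without siNT replicate 2 or 3 or siUPF1 replicate 1 or 2 (0.0540 to 0.111), and the F192E call without siNT replicate 3 (0.0506). The FE-ER and WT calls were also lost without the expression filter (0.168 and 0.0892) and when only the libraries of the line were fitted (0.0531 and 0.115). Of its exon bases, 7.24% are shared with FAU on the same strand, and reads there can be assigned only by estimation.

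SEL1L, the adaptor that holds the SYVN1 ligase together, stood at 43.7 to 67.1 CPM with siNT and 63.9 to 80.6 CPM with siUPF1 and was higher with siUPF1 in 24 of 24 pairs. It rose by 0.32 in the mean (SE 0.040, adjusted p = 7.8e-09) and was called in F192E, I757R, IR-ER, E797R and LECY. These calls were lost without siNT replicate 2 or 3 or siUPF1 replicate 1 in F192E (adjusted p 0.0585 to 0.107), without siNT replicate 3 or any siUPF1 replicate in I757R (0.0651 to 0.308), without any library but siNT replicate 1 in IR-ER (0.0616 to 0.323) and without siNT replicate 3 in LECY (0.0977). The expression filter also decided the F192E (0.0516 without it), I757R (0.157) and IR-ER (0.171) calls. When only the line was fitted, the I757R (0.145) and IR-ER (0.102) calls were lost, and the IR-ER call was also lost with DESeq2 size factors in edgeR (0.0551). SEL1L was also called in WT (0.0411) and FE-ER (0.0347) with the replicate block. DERL1, a channel-like derlin, rose by 0.11 in the mean (adjusted p = 0.0135, or 0.150 without the expression filter) and by 0.27 in LECY (0.0495), the latter lost without siNT replicate 2 or 3 or siUPF1 replicate 2 or 3 (0.0573 to 0.254), without the expression filter (0.269) and when only LECY was fitted (0.171). DERL2 (0.05) and the scaffold protein HERPUD1 (0.10) were not called in the mean or in any line. Under the replicate block DERL2 rose in LECY (0.46, adjusted p = 0.00132) and rose more there than in WT (0.60, adjusted p = 0.0159).

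Of the remaining members, the transcription factor XBP1 rose by 0.32 in the mean (SE 0.068, adjusted p = 7.2e-05) and by 0.64 in CLIP (SE 0.19, adjusted p = 0.00855), and was called in CLIP alone of the 8 lines. With the replicate block it was also called in WT (0.0177), F192E (0.0469), IR-ER (0.0277) and LECY (0.000952), and its rise was smaller in FE-ER than in CLIP (-0.53, adjusted p = 0.0392). The counts are per gene and do not separate spliced from unspliced XBP1 mRNA. The third sensor, EIF2AK3, changed by 0.09 in the mean (adjusted p = 0.148) and was called in no line. WFS1, an ER membrane protein of calcium balance, changed by -0.03 (adjusted p = 0.760).

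The knockdown response was then compared between lines. Each construct was carried by its own line only, so construct and line cannot be told apart in any comparison between lines. The depth of the knockdown of endogenous UPF1 cannot be read in the lines with CLIP-tagged UPF1. A difference of knockdown effects between lines was called for 4 members: TBL2, EDEM1, ATF6 and ERN1. Between WT and CLIP, 2 members had a smaller rise in WT, TBL2 and EDEM1, and none a larger one, where 3.23% of tested genes were called lower and 0.767% higher in that difference. Between LECY and WT, 3 members, TBL2, EDEM1 and ATF6, had a larger rise in LECY (2.76% of tested genes higher, 0.551% lower). Those comparisons share the WT libraries, so the values stand side by side and are not independent.

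TBL2, an ER membrane protein that binds PERK and whose mRNA is an established NMD target (chromosome 7, 73567533 to 73578791, minus strand), was called in 6 differences between lines. With siNT, TBL2 was at 42.2, 34.5 and 38.3 CPM in CLIP, 39.1, 36.9 and 39.5 in WT, 37.6, 38.2 and 34.3 in F192E, 43.02, 38.2 and 38.8 in FE-ER, 42.8, 36.7 and 36.3 in I757R, 39.3, 32.7 and 35.6 in IR-ER, 38.7, 40.3 and 34.8 in E797R and 41.02, 39.8 and 36.1 in LECY. With siUPF1, TBL2 was at 56.5, 64.7 and 65.02 CPM in CLIP, 35.9, 36.5 and 38.03 in WT, 44.9, 43.9 and 46.2 in F192E, 41.8, 42.7 and 45.3 in FE-ER, 37.4, 32.9 and 40.3 in I757R, 41.6, 41.00 and 39.8 in IR-ER, 36.05, 38.2 and 34.2 in E797R and 58.02, 67.3 and 61.5 in LECY. In CLIP and LECY all siUPF1 libraries, from 56.5 CPM upward, stood above all 24 siNT libraries, which reached 43.0 CPM. In WT, FE-ER, I757R and E797R the siNT and siUPF1 libraries overlapped. The log2 change was 0.70 in CLIP (SE 0.088), 0.68 in LECY (SE 0.089) and 0.29 in F192E (SE 0.089), each called. It was 0.19 in IR-ER, 0.11 in FE-ER, -0.06 in WT, -0.07 in I757R and -0.07 in E797R, none of them called. The F192E call was lost without siNT replicate 3 (adjusted p = 0.0908) or siUPF1 replicate 3 (0.0531), without the expression filter (0.205) and when only F192E was fitted (0.0682).

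Against CLIP, the TBL2 response was lower in WT (-0.76 on the log2 scale, SE 0.13, adjusted p = 9.5e-05), and the difference was -0.77 in I757R (SE 0.13), -0.77 in E797R (SE 0.13), -0.59 in FE-ER (SE 0.13) and -0.51 in IR-ER (SE 0.13), each called. TBL2 was the only member called in the FE-ER, I757R and IR-ER comparisons with CLIP, where 1.32%, 2.77% and 2.84% of tested genes were called in either direction. When only the libraries of the lines compared entered the fit, no member was called for FE-ER or IR-ER against CLIP, and without the expression filter those TBL2 differences were not called either (adjusted p = 0.0983 and 0.158). Against WT, the TBL2 response was larger by 0.74 in LECY (SE 0.13, adjusted p = 0.000225). Beside TBL2, the other 19 established NMD targets tested rose in 16 cases in CLIP (18.1% of all tested genes), 2 in WT (8.43%) and 16 in LECY (15.8%), so that the share in WT was near that of all genes.

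EDEM1, a mannosidase-like protein that marks glycoproteins for degradation (chromosome 3, 5187646 to 5219957, plus strand), had its largest changes in LECY and CLIP. With siNT, EDEM1 was at 47.1, 38.8 and 34.7 CPM in CLIP, 44.00, 44.1 and 40.4 in WT, 43.1, 39.1 and 43.2 in F192E, 41.4, 38.5 and 33.4 in FE-ER, 45.5, 41.6 and 37.5 in I757R, 46.7, 38.3 and 40.7 in IR-ER, 44.2, 39.05 and 38.4 in E797R and 33.5, 34.8 and 32.9 in LECY. With siUPF1, EDEM1 was at 63.4, 55.03 and 59.4 CPM in CLIP, 47.4, 43.4 and 38.9 in WT, 54.95, 43.1 and 54.8 in F192E, 51.1, 53.2 and 48.97 in FE-ER, 50.8, 45.5 and 51.3 in I757R, 57.8, 43.9 and 54.9 in IR-ER, 47.2, 47.8 and 47.96 in E797R and 54.8, 56.00 and 67.1 in LECY. The sets did not overlap in 4 lines, and in WT the siUPF1 libraries spread on both sides of the siNT libraries. The log2 change was 0.82 in LECY (SE 0.11), 0.57 in CLIP (SE 0.11), 0.44 in FE-ER (SE 0.11) and 0.31 in IR-ER (SE 0.11), each called, and 0.01 in WT (SE 0.12). In F192E it was 0.29, called with the replicate block alone (adjusted p = 0.0161). The FE-ER call was lost without siNT replicate 3 (adjusted p = 0.0584) and the IR-ER call without siNT replicate 2 or 3 or siUPF1 replicate 1 or 3 (0.164 to 0.292). The IR-ER call was also lost with DESeq2 (0.0566) and without the expression filter (0.252). The same held with DESeq2 size factors in edgeR (0.0606), with library totals without TMM (0.0601) and when only IR-ER was fitted (0.150). The LECY response exceeded that of WT by 0.80 (SE 0.16, adjusted p = 0.00154). With siNT, EDEM1 was already lower in LECY (32.9 to 34.8 CPM) than in WT (40.4 to 44.1 CPM), a level difference that was not called. Part of the 0.80 therefore lies in the siNT libraries and not in a higher siUPF1 level. The WT response was below that of CLIP (-0.55, SE 0.16, adjusted p = 0.0377). The latter call was lost without CLIP siNT replicate 2 or 3, CLIP siUPF1 replicate 1 or 3, WT siNT replicate 1 or 2, or WT siUPF1 replicate 2 or 3 (adjusted p from 0.0643 to 0.155). It was also lost without the expression filter (0.0875) and when only the lines compared were fitted (0.114).

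ATF6, the sensor that becomes a transcription factor (chromosome 1, 161766294 to 161964070, plus strand), rose by 0.34 in the mean (SE 0.032, adjusted p = 6.7e-12). With siNT, ATF6 was at 78.7, 83.2 and 73.8 CPM in CLIP, 75.8, 88.7 and 72.6 in WT, 75.7, 92.7 and 70.7 in F192E, 69.4, 78.96 and 74.8 in FE-ER, 74.2, 78.2 and 73.9 in I757R, 83.2, 74.6 and 73.96 in IR-ER, 75.3, 83.2 and 68.2 in E797R and 69.6, 79.1 and 70.5 in LECY. With siUPF1, ATF6 was at 101, 111 and 110.2 CPM in CLIP, 77.5, 88.01 and 90.2 in WT, 108, 92.04 and 103 in F192E, 94.4, 94.3 and 92.04 in FE-ER, 88.8, 84.5 and 91.5 in I757R, 94.1, 95.00 and 101 in IR-ER, 85.3, 88.2 and 102 in E797R and 111, 116 and 118 in LECY. The highest mean siUPF1 levels were in LECY and CLIP. The sets overlapped in WT and in F192E, where siNT replicate 2 (92.7 CPM) lay above siUPF1 replicate 2 (92.04 CPM). The log2 change was 0.66 in LECY (SE 0.092), 0.45 in CLIP (SE 0.091) and 0.11 in WT (SE 0.093, adjusted p = 0.500). It was also called in F192E (0.35), FE-ER (0.33), IR-ER (0.32) and E797R (0.28). The LECY response exceeded that of WT by 0.55 (SE 0.13, adjusted p = 0.00855), a call lost without the expression filter (0.0667) and when only WT and LECY were fitted (0.0863). Calls in single lines were lost without F192E siNT replicate 3 (0.0634), FE-ER siNT replicate 1 (0.0689), IR-ER siNT replicate 2 or 3 or siUPF1 replicate 3 (0.0689 to 0.0765), and E797R siNT replicate 1 or 3 or siUPF1 replicate 3 (0.0657 to 0.199). Without the expression filter the FE-ER (0.0914), IR-ER (0.140) and E797R (0.193) calls were lost, and when only the line was fitted those of F192E (0.0575) and E797R (0.153).

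ERN1, the kinase and RNase that splices XBP1 mRNA (chromosome 17, 64039142 to 64130819, minus strand), was the least abundant member per kilobase. With siNT, ERN1 was at 15.5, 11.8 and 14.3 CPM in CLIP, 12.1, 10.5 and 15.9 in WT, 14.9, 15.2 and 17.8 in F192E, 21.5, 12.5 and 15.6 in FE-ER, 15.4, 14.1 and 17.5 in I757R, 20.03, 13.97 and 20.5 in IR-ER, 15.2, 12.9 and 19.2 in E797R and 12.6, 12.1 and 19.6 in LECY. With siUPF1, ERN1 was at 28.9, 26.2 and 30.8 CPM in CLIP, 14.5, 13.6 and 17.1 in WT, 21.9, 19.4 and 27.4 in F192E, 24.8, 15.9 and 20.00 in FE-ER, 18.3, 13.95 and 27.6 in I757R, 22.04, 14.3 and 23.7 in IR-ER, 13.7, 10.1 and 17.6 in E797R and 24.2, 21.9 and 36.1 in LECY. Its replicates spread widely, and the sets did not overlap in 3 lines. The log2 change was 1.05 in CLIP (SE 0.24, adjusted p = 0.00059) and 0.90 in LECY (SE 0.24, adjusted p = 0.00367), and from -0.17 in E797R to 0.52 in F192E in the lines where it was not called. In F192E it was called with the replicate block (adjusted p = 0.00255), without the expression filter (0.0225) and when only that line was fitted (0.0388). Without LECY siUPF1 replicate 3 the LECY call was lost (adjusted p = 0.0576). The E797R response was below that of CLIP (-1.22, SE 0.34, adjusted p = 0.0237), where 6.01% of tested genes were called in either direction; TBL2 was the other member called there. That call was lost without CLIP siNT replicate 2 (0.0714), CLIP siUPF1 replicate 3 (0.0522), E797R siNT replicate 3 (0.0806) or E797R siUPF1 replicate 2 (0.0728). With the replicate block, the ERN1 response was also called lower than in CLIP for WT (-0.84, adjusted p = 0.00612), FE-ER, I757R and IR-ER, and higher in LECY than in WT (0.66, adjusted p = 0.0426).

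**Figure D4:**
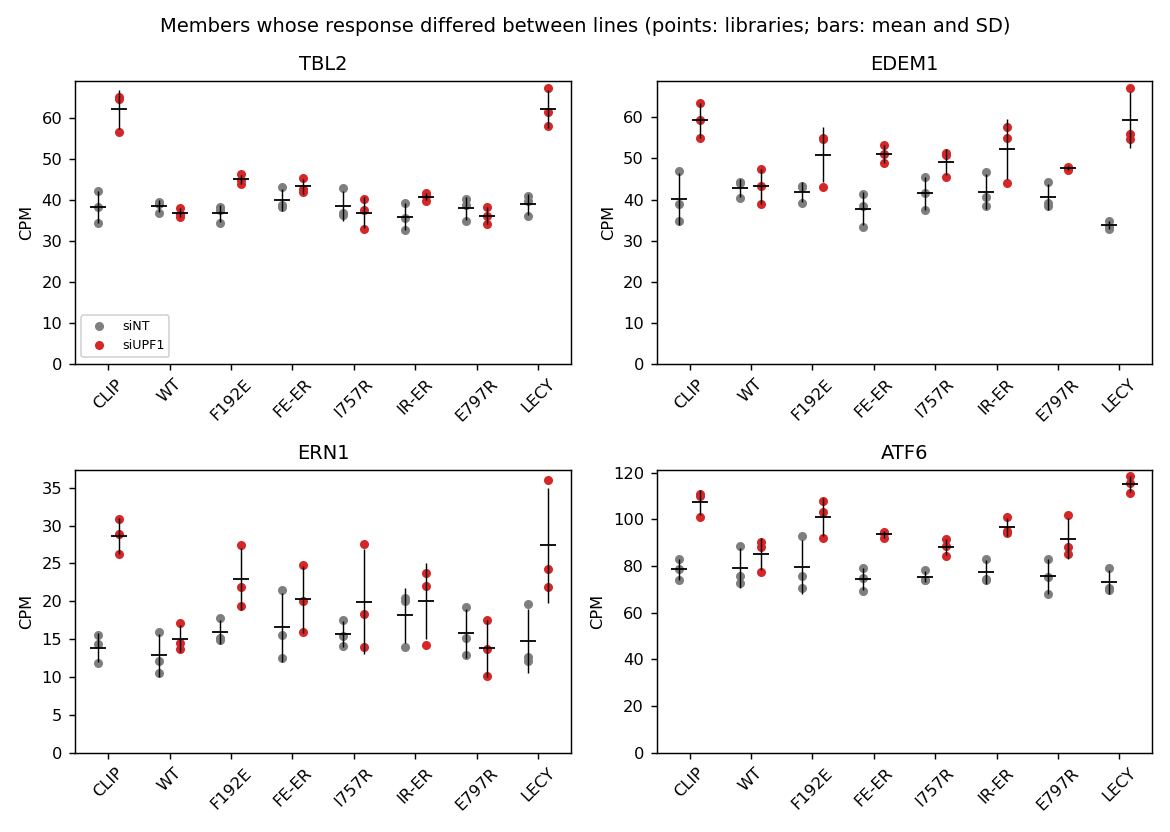
CPM (y axis, from 0) of TBL2, EDEM1, ERN1 and ATF6 in the 8 stable lines (x axis), with 1 point per library (grey siNT, red siUPF1) and black bars for the mean and SD of 3 replicates. In TBL2 the red points of CLIP and LECY lie at 56.5 CPM and above, over all grey points, while grey and red points overlap in WT, FE-ER, I757R and E797R.

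For the other comparisons of knockdown effects, no member was called. LECY against CLIP had none, with differences from -0.23 to 0.27 (0.00599% of tested genes called in either direction), and F192E against CLIP had none, with differences from -0.53 to 0.19 (0.311%). F192E, FE-ER, I757R, IR-ER and E797R against WT gave no call in 160 tests of members, with 3 at an unadjusted p under 0.05, none with the replicate block and none with DESeq2. Of all tested genes, 0.18%, 0.00599%, 0.0%, 0.0% and 0.0% were called in these 5 comparisons. SRPRA, HYOU1, SYVN1, SEC24D and DNAJB9 were not called in any of the 13 differences; with the replicate block, SRPRA rose more in WT than in CLIP (0.51, adjusted p = 0.00333) and less in LECY than in WT (-0.49, adjusted p = 0.00593), and HYOU1 rose less in E797R than in CLIP (-0.31, adjusted p = 0.0276).

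Levels were then compared between lines under the same siRNA. With siNT, WT against CLIP and each mutant against WT gave no call in 224 tests of members with edgeR, none with the replicate block and none with DESeq2, and 1 had an unadjusted p under 0.05. The differences ran from -0.43 to 0.50 on the log2 scale, and 0.012% of tested genes were called in either direction for WT against CLIP and 0.0% to 0.018% for the mutants against WT.

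With siUPF1, 13 member levels were called. In WT against CLIP, 2 members were higher and 4 lower, where 5.45% of tested genes were higher and 8.61% lower. SRPRA was higher by 0.54 (SE 0.15, adjusted p = 0.00955) and PDIA4 by 0.27 (SE 0.080, 0.0168). TBL2 was lower in WT (-0.75, SE 0.090, adjusted p = 4.0e-08), as were EDEM1 (-0.46, SE 0.11, 0.00383), ATF6 (-0.33, SE 0.091, 0.00959) and ERN1 (-0.92, SE 0.24, 0.00636). The SRPRA call was lost without CLIP siUPF1 replicate 2 or 3 or WT siUPF1 replicate 1 (0.0703 to 0.169), the PDIA4 call without CLIP siUPF1 replicate 1 or 3 or WT siUPF1 replicate 1 (0.0826 to 0.122), and the ATF6 call without WT siUPF1 replicate 1 (0.0677). PDIA4 was also not called without the expression filter (0.268). The replicate block gave 15 calls here, where 25.4% of tested genes were called with it.

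In LECY against WT with siUPF1, 4 members were higher and 3 lower, where 8.18% of tested genes were higher and 5.34% lower. ERN1 was higher by 0.87 (SE 0.24, adjusted p = 0.0110), TBL2 by 0.76 (SE 0.090, 4.8e-08), EDEM1 by 0.46 (SE 0.11, 0.00383) and ATF6 by 0.44 (SE 0.092, 0.000749). CRELD2 was lower in LECY (-0.58, SE 0.19, adjusted p = 0.0377), as were SRPRA (-0.47, SE 0.15, 0.0296) and PDIA4 (-0.33, SE 0.080, 0.00289). The CRELD2 call was lost without any 1 of the 3 LECY siUPF1 replicates or WT siUPF1 replicate 1 or 2 (0.0629 to 0.181), the SRPRA call without LECY siUPF1 replicate 2 or 3 or WT siUPF1 replicate 1 (0.0991 to 0.336), and the ERN1 call without LECY siUPF1 replicate 3 (0.135) or WT siUPF1 replicate 2 (0.0538). When only these lines were fitted, CRELD2 (0.0629) and SRPRA (0.105) were not called, and without the expression filter PDIA4 was not (0.0655). This comparison shares its WT libraries with WT against CLIP. The replicate block gave 15 calls, with 24.4% of tested genes called. F192E, FE-ER, I757R, IR-ER and E797R against WT gave no member call with siUPF1, where 1.82%, 0.425%, 0.0779%, 0.246% and 0.0479% of tested genes were called in either direction; with the replicate block 8, 1, 0, 2 and 0 members were called, and 6.99%, 2.61%, 0.533%, 1.99% and 0.479% of tested genes.

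The rest of the ER machinery was counted in the mean of the lines, from lists set by function. These lists too were set with earlier results of these data known, so their counts are descriptions. The counts stand against 31.6% of all tested genes higher and 31.2% lower. Of 30 other folding and redox enzymes, 21 rose and 6 fell, with a median of 0.22. The largest rises there were in the calcium-binding protein CALU (0.91, SE 0.023) and the glucosidase MOGS (0.79, SE 0.054), and the largest falls in the membrane-bound thioredoxin relatives TMX1 (-1.16, SE 0.079) and TMX3 (-0.86, SE 0.065). Of 26 other degradation genes, 11 rose and 6 fell, led by EDEM2 (0.58), a relative of EDEM1, and AUP1 (0.43), and by HERPUD2 (-1.01) and MARCHF6 (-0.34). EDEM2 rose by 1.26 in CLIP, 1.001 in LECY and 0.34 in WT, the last not called (adjusted p = 0.175).

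Of 24 other targeting and translocation genes, 6 were higher and 11 lower, with a median of -0.10, GET3 (0.59) and TRAM2 (0.45) as the largest rises, and SEC61A2 (-0.55) and SSR4 (-0.28) as the largest falls. The oligosaccharyltransferase, which attaches glycans to nascent proteins, had 2 of 12 subunits higher (TUSC3, 0.15, and DDOST, 0.11) and 5 lower (STT3B, -0.39, and OSTC, -0.24, the largest). Of 24 other export and retrieval genes, 11 rose, SEC31A (0.44) and SURF4 (0.26) most, and 5 fell, COPB2 (-0.32) and PREB (-0.30) most.

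Of 16 tested genes among other sensors and their processing, 7 rose and 4 fell. CREB3L2, a membrane-bound transcription factor, rose by 1.54 (SE 0.063) and TXNIP, whose RNA increases when IRE1 is active, by 1.41 (SE 0.12). In single lines TXNIP rose by 2.07 in CLIP, 2.39 in LECY and 1.09 in WT, the last not called (adjusted p = 0.0551). The protease MBTPS2 that cuts ATF6 fell by 0.42 on the log2 scale (SE 0.034) and EIF2S1 by 0.20 (SE 0.042). In the ATF4 and CHOP branch below PERK, 7 of 16 genes rose and 2 fell in the mean, with SESN2 (0.93) and CEBPB (0.67) highest and TNFRSF10B (-0.36) and PPP1R15B (-0.10) lowest. In single lines that branch had 7 genes higher and 1 lower in CLIP, none higher and 1 lower in WT, and 7 higher and 1 lower in LECY, where 18.1%, 8.43% and 15.8% of all tested genes were higher; it shares ATF4 and PPP1R15A with the list of NMD targets. Of 6 tested mRNAs reported to be cut by IRE1, TGOLN2 rose (0.26) and 4 fell, SPARC (-0.87) and COL6A1 (-0.42) most. In single lines, 2 of the 6 were lower in CLIP (15.6% of tested genes) and 2 in LECY (13.6%), and TGOLN2 was higher in both. In F192E (10.1%) and IR-ER (7.8%) 1 was lower. In WT (6.98%), FE-ER (8.52%), I757R (7.79%) and E797R (7.73%) no call was made in either direction. Cytosolic heat shock genes had 1 of 12 higher (HSPB1, 0.46) and 2 lower (HSP90AA1, -0.23, and HSP90AB1, -0.13) in the mean, and no call in CLIP, WT or LECY.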

How the data were processed

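Per the labels' protocols, the 48 libraries were xGen RNA libraries from DNase-treated total RNA, depleted of ribosomal RNA by RNase H. The values are expected counts per gene, deposited by the authors. The submitters' processing notes name cutadapt, STAR, RSEM, DESeq2 and hg38 without order, role or version. The annotation release and strand setting are not given in the sources used here, and 9.16% of values were not whole.

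Expected counts were rounded. Genes passed edgeR's filterByExpr with a minimum count of 10, leaving 16697. The 48 libraries entered 1 model of 16 groups in edgeR 4.0.16 (R 4.3.3), with TMM factors of 0.951 to 1.03 and a robust quasi-likelihood fit. All adjusted p-values are from edgeR's two-sided quasi-likelihood F test, adjusted by Benjamini-Hochberg over all tested genes, unless DESeq2 1.42.0 is named. Calls are adjusted p-values under 0.05. The SE is the log2 change divided by the square root of F. There were 36 contrasts, covering the knockdown in each line and in their mean, the differences of these effects between lines, and levels between lines. Counts were also simulated for all 48 libraries, from each gene's mean over them and with the same fixed dispersion for every gene. Changes were set in CLIP with siUPF1 alone. Over 16263 genes, 32 of 100 genes changed 1.5-fold and 75 of 100 changed 2-fold were recovered, and 8 unchanged genes were called. The dispersion was not estimated from these data, so recovery in the real libraries can differ.

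Replicate libraries differed beyond counting noise, with a chi-square per degree of freedom of 3.85 to 18.5. In each of the 8 lines, siNT and siUPF1 libraries with the same replicate number deviated together (correlations of 0.115 to 0.469, against -0.353 to 0.074 for other numbers), so the numbers may pair the libraries, although the labels do not say what a number marks. The main model has no replicate term; a fit with the number as a block was an alternative, and its value is given beside a knockdown effect or difference whose call it changed and as counts for levels.

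Members, role groups and gene lists were chosen with earlier results of these data known. Genes given in every library were the members called in all 8 lines, the 2 largest mean changes per role group among members called in the mean, and those called in the difference between WT and CLIP or LECY and WT. In each other list the 2 largest rises and falls were named. Gene positions came from GENCODE 29, matched by Ensembl ID for all 32 members, and 18 of them share exon bases with another gene. Beside those named above, 14.8% of the exon bases of PDIA3 are shared with ELL3 and 14.3% with AC018512.1. EDEM1 shares 9.66% with AC026202.3 and HYOU1 8.66% with AP003392.3, all of these on the opposite strand. DNAJB11 shares 7.87% with AC068631.2 on the same strand. Of the list genes, 3 had been renamed and were matched by ID. The alternatives were a replicate block, DESeq2 size factors, library totals without TMM, no filter, a minimum count of 50, only the lines compared, DESeq2, and each of the 48 libraries left out.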

Additional observations from a re-analysis of the deposited data

Results flagged for a closer look

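A test of the difference between 2 lines passed the threshold for 10 pairs of a member and a comparison, in 4 members. For TBL2, the knockdown response differed from that of CLIP by -0.76 in WT, -0.77 in E797R, -0.77 in I757R, -0.59 in FE-ER and -0.51 in IR-ER on the log2 scale, and that of LECY differed from that of WT by 0.74. For EDEM1 the difference was -0.55 between WT and CLIP and 0.80 between LECY and WT. For ATF6 it was 0.55 between LECY and WT. For ERN1 it was -1.22 between E797R and CLIP. All 10 were also called with the replicate block, and the comparisons share CLIP or WT libraries.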

How the results depend on the processing

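No result changed direction under any alternative run. Of the 111 calls of single members, none was lost with the replicate block or a minimum count of 50, 1 was lost with DESeq2, 3 with DESeq2 size factors in edgeR, 1 without TMM and 26 without the expression filter, and 26 of 93 were lost when only the lines compared were fitted. With the replicate block, members called lower were 2 in CLIP, 1 in FE-ER and 2 in LECY, and members called higher were 11 in WT and 14 in F192E. The block gave 4 called differences for WT minus CLIP, 3 for FE-ER minus CLIP, 2 for I757R minus CLIP, 2 for IR-ER minus CLIP and 7 for LECY minus WT, where 3.78% to 9.55% of all tested genes were called, and with siUPF1 it gave 15 called levels for WT minus CLIP, 8 for F192E minus WT, 1 for FE-ER minus WT, 2 for IR-ER minus WT and 15 for LECY minus WT. With only the lines compared, members lower were 1 in CLIP and 0 in LECY, members higher were 3 in I757R and 6 in IR-ER, and differences called were 1 for WT minus CLIP, 0 for FE-ER minus CLIP and 0 for IR-ER minus CLIP; that fit had fewer samples. Without the filter, 1 member was lower in FE-ER, 6 were higher in IR-ER, and 2 levels were called for F192E minus WT with siUPF1. Without TMM, 2 members were lower in the mean and 1 level was called for F192E minus WT with siUPF1, and with a minimum count of 50, 2 were lower in the mean. The cause of these changes was not tested. Apart from those of the replicate block, the counts above and the leave-one-out counts below stand without the share of all tested genes in the same fit. They describe the fits and are not read as results about the members. Leaving out 1 library at a time gave 10 members higher in CLIP, 4 to 6 in WT, 4 to 9 in F192E, 4 to 6 in FE-ER, 3 to 6 in I757R, 5 to 9 in IR-ER, 6 to 9 in E797R, 9 to 14 in LECY and 17 to 19 in the mean, with 0 to 1 lower in LECY and in the mean. It gave 1 to 2 called differences for WT minus CLIP and for E797R minus CLIP, and with siUPF1 3 to 6 called levels for WT minus CLIP and 4 to 7 for LECY minus WT. At this depth and with 3 replicates, the median SE of a member's log2 change in 1 line was 0.16, so small changes of single lines were not detectable.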
